A study of Mus musculus with 2 samples.

Results

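The Hox genes encode homeodomain transcription factors and stand in 4 clusters on different chromosomes. All 39 protein-coding Hox genes of the mouse annotation were taken by name, out of 21938 protein-coding genes, with no use of the measured values. Each cluster was followed from 10 kb before the gene body at its lower end to 10 kb after the gene body at its higher end. On mm10 these windows were chr6:52145590-52270880 for Hoxa (11 genes), chr11:96184316-96378256 for Hoxb (10 genes), chr15:102911103-103046852 for Hoxc (9 genes) and chr2:74658310-74775142 for Hoxd (9 genes), 572 kb in all. The assay was ATAC-seq: Tn5 transposase inserts adapters where DNA is open, and sequencing finds the insertions. It was run on CFU-E, the colony-forming progenitors that precede the first recognisable red cell precursors, isolated as primary cells from C57BL/6J adults (male, 5 to 6 weeks old). There was 1 group of 2 libraries of 50000 cells each, labelled as biological replicates from separate biosamples with a single donor identifier, so the design compares no conditions and no treatment is labelled. The −log10 p values of matched records differed less between the 2 libraries (median absolute log2 ratio 0.23) than between the pseudoreplicates (0.33), so the libraries were counted as 1 sample and values carry no SD.

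Hox proteins set position along the head-to-tail axis of the embryo, and the order of genes within a cluster follows the order of their domains along that axis. Numbered paralog groups run from group 1, expressed most anteriorly, to group 13, expressed most posteriorly. In blood, several Hox genes of the a, b and c clusters are known for roles in stem cells and early progenitors, and their expression is known to decline as cells mature. Silent Hox clusters are a classic target of Polycomb complexes, active ones of trithorax and MLL proteins, and CTCF binds at boundaries within them.

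The peak lists were checked against the labelled cell type before use. All 10 erythroid markers, among them the globin regulators Gata1 and Klf1, had an accessible promoter in the main list described below, with 9 in each replicate list. Among the others, 1 of 7 stem and early progenitor markers (Hlf, in neither replicate list), 0 of 6 granulocyte and monocyte markers, 0 of 6 lymphoid markers and 1 of 5 stroma and endothelium markers (Col1a1, fold 8.71) had one. The series overlap list, described further on, had 3 of the 7 stem and early progenitor markers. It added Kit, with a fold of 4.46, and Gata2, with 4.15. Its counts for the other 3 groups were 0 of 6, 1 of 6 and 1 of 5, against 52.1% of all protein-coding genes. All protein-coding genes gave 45.8% in the main list, 43.5% in replicate 1's list and 42.6% in replicate 2's. The older list described further on did not separate the cell types as the main list did. In it 68.8% of all protein-coding genes had a promoter region. It had regions at 10 of 10 erythroid, 7 of 7 stem and early progenitor and 4 of 5 stroma and endothelium markers. It also had them at 4 of 6 granulocyte and monocyte and 4 of 6 lymphoid markers (66.7% each), near the share of all genes.

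The main list was the authors' series list thresholded on the irreproducible discovery rate (IDR), a measure of how well the rank of a peak repeats between a pair of peak sets. It held 50003 records, which merged into 24394 regions. A promoter was called accessible when some region came within 1 kb, on either side, of any annotated start of the gene. The fold is the authors' enrichment over local background, and the −log10 p is that of the same record.

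By the lists thresholded on IDR, almost no Hox promoter was accessible in these cells. In the main list 1 of 39 Hox genes (2.56%) had an accessible promoter, against 45.8% of all protein-coding genes. That gene was Hoxa7, a central Hox gene of paralog group 7. None of the 10 Hoxb, 9 Hoxc and 9 Hoxd genes had one. The thresholded list of replicate 1 gave 0 of 39, against 43.5% of protein-coding genes, and that of replicate 2 gave 0 of 39, against 42.6%. The conservative series list, made from the true replicates, again gave Hoxa7 alone, against 45.7% of protein-coding genes. Because the cells were measured in bulk, fewer cells with an open site and less opening per cell cannot be told apart.

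The 4 windows together held 2 regions of the main list. This is 0.350 regions per 100 kb, against 0.895 over the genome. The Hoxa window held the region at Hoxa7, and the Hoxc window held a region between Hoxc9 and Hoxc8. The Hoxb and Hoxd windows, 194 kb and 117 kb long, held 0 regions each.

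The DNA is shown for the main-list regions of the windows and for a Hoxa4 site that no thresholded list held. Other weak sites are not shown, and absence from a list does not say that the DNA was closed. Each stretch is mm10 sequence written 5′ to 3′ on the strand on which the cluster's genes are transcribed. Capitals in the Hoxc window and in the short Hoxa7 stretch mark the 12-base core of the stretch most like a CTCF site, and capitals in the Hoxa4 window mark NFY and KLF matches. The upstream Hoxa7 window and the short Hoxa7 stretch lie on either side of the gene's start, and Hoxa4 had a weaker region described further on.
Hoxc region, chr15:102987538-102987638, plus strand: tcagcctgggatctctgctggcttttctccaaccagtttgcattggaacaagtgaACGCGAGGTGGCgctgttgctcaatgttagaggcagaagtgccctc
Hoxa7 upstream summit, chr6:52222001-52222101, minus strand: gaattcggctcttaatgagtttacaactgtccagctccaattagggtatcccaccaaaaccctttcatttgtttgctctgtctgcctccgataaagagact
Hoxa7 stretch at the stronger summit, chr6:52221805-52221824, minus strand: aattCCAGGAGATGGCagtg
Hoxa4 summit, chr6:52191901-52192001, minus strand: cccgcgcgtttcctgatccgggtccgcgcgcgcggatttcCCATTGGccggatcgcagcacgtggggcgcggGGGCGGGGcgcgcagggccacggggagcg

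The Hoxa7 region, chr6:52221510-52222134, carried 2 records. The stronger had its summit 24 bp downstream of the start, in an exon, with a fold of 6.57 and a −log10 p of 21.4. By fold it stood at percentile 64.4 of the main list's records, and by −log10 p at percentile 40.8. The weaker had its summit 197 bp upstream of the start, with a fold of 2.86 and a −log10 p of 4.77. Over merged regions the median fold was 7.57, so the Hoxa7 region lay below the middle of the regions. Both libraries had a record here in their overlap lists, which keep peaks that overlap between pseudoreplicates without an IDR threshold. In replicate 1 it had a fold of 6.31 and a −log10 p of 13, and in replicate 2 a fold of 5.82 and a −log10 p of 12. Its IDR was 0.171 in replicate 1 and 0.0864 in replicate 2, so neither passed a thresholded list. In the series it was 0.00357 between the true replicates and 0.0336 between the pseudoreplicates of the pooled reads. Hoxa7 had a promoter region in 11 of the 13 lists examined, all but the thresholded lists of the single replicates.

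The Hoxc region, chr15:102987481-102987713, lay in an intron of the long Hoxc5 transcript, with its summit 3019 bp upstream of the nearest start, that of Hoxc8. It had a fold of 4.82 and a −log10 p of 12.1, at percentiles 47.2 and 23.9 of the main list. Its IDR was 0.0440 between pseudoreplicates and 0.169 between true replicates, and the conservative list did not hold it. Neither replicate's thresholded or overlap list held it. The older list of replicated peaks, made from other files, held a record here with a fold of 4.73 and a −log10 p of 7.64. The labels do not say whether it rests on the same reads, so it is not counted as a repeat of this site.

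Consensus matches were counted within 100 bp of each summit, on both strands. The 3 records of the main list in the windows had 0 matches to the GATA motif (AGATAA or TGATAA, or either ending in G), the sequence bound by the erythroid regulator GATA1. Over the main list 16.7% of promoter regions and 49.8% of other regions held a GATA match. They also had 0 matches to KLF (CCACACCC, CCACGCCC, CCCCACCC or CCCCGCCC), held by 39.6% of promoter regions and 19% of other regions. NFY (CCAATCA or CCAATGA, or either ending in G) gave 0 matches, against 20.6% and 7.50%, and ETS (CCGGAAG) gave 0, against 14.8% and 1.83%. The sequence bound by Hox proteins with their PBX partners (TGATTNAT) gave 0, against 0.672% and 1.35%, and that of MEIS (TGACAG) gave 0, against 11.7% and 16.4%. RUNX (TGCGGTC or TGTGGTC, or either ending in T) gave 0, against 8.20% and 10.9%. The NFE2 consensus gave 0, against 0.526% and 2.57%, and the CTCF consensus gave 0, against 2.42% and 11.6%. A missing match says only that these letters are not in the window.

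A CTCF weight matrix, learned after the data had been seen from 3239 sites of the same list outside promoters and outside the Hox windows, scored each window by its best stretch. The best stretch of the Hoxc region had its middle 11 bp from the summit. It equalled the commonest base of the matrix at 12 of 20 positions, 8 of them within the 12-base core. A score as high was found in 2.76% of control windows and 33.8% of regions outside promoters. The sites that made the matrix came from these same regions, which can raise the second share. Control windows lay 1 kb from summits of regions outside promoters, overlapped no region and were not matched for CpG content. The best stretch at Hoxa7 had its middle 15 bp from the stronger summit and equalled the matrix at 9 of 20 positions, 8 of them in the core. A score as high was found in 1.29% of control windows and 6.37% of promoter regions. Both stretches lay on the strand of the cluster's genes. These are matches of sequence, and binding was not measured.

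Without the IDR threshold a few weak sites were added in the a, b and c clusters, and the d cluster still held no record. The overlap list of the series, which has no IDR threshold, held 9 regions in the windows, or 1.57 per 100 kb against 1.55 over the genome. In it 5 of 39 Hox genes (12.8%) had an accessible promoter, against 52.1% of protein-coding genes. Besides Hoxa7 these were Hoxa4, Hoxb1, Hoxc6 and Hoxc9. The replicated list of the series gave 3 of 39, against 52.3% of protein-coding genes. Replicate 1's overlap list gave 3 of 39, against 49.0%, and replicate 2's gave 2 of 39, against 48.0%. The ranked lists, which hold all records given to the IDR step, gave 3 of 39 for the true replicates (52.4% of protein-coding genes) and 5 of 39 for the pseudoreplicates (52.3%). For the single replicates they gave 3 of 39 (49.2%) in replicate 1 and 2 of 39 (48.2%) in replicate 2.

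**Figure D1:**
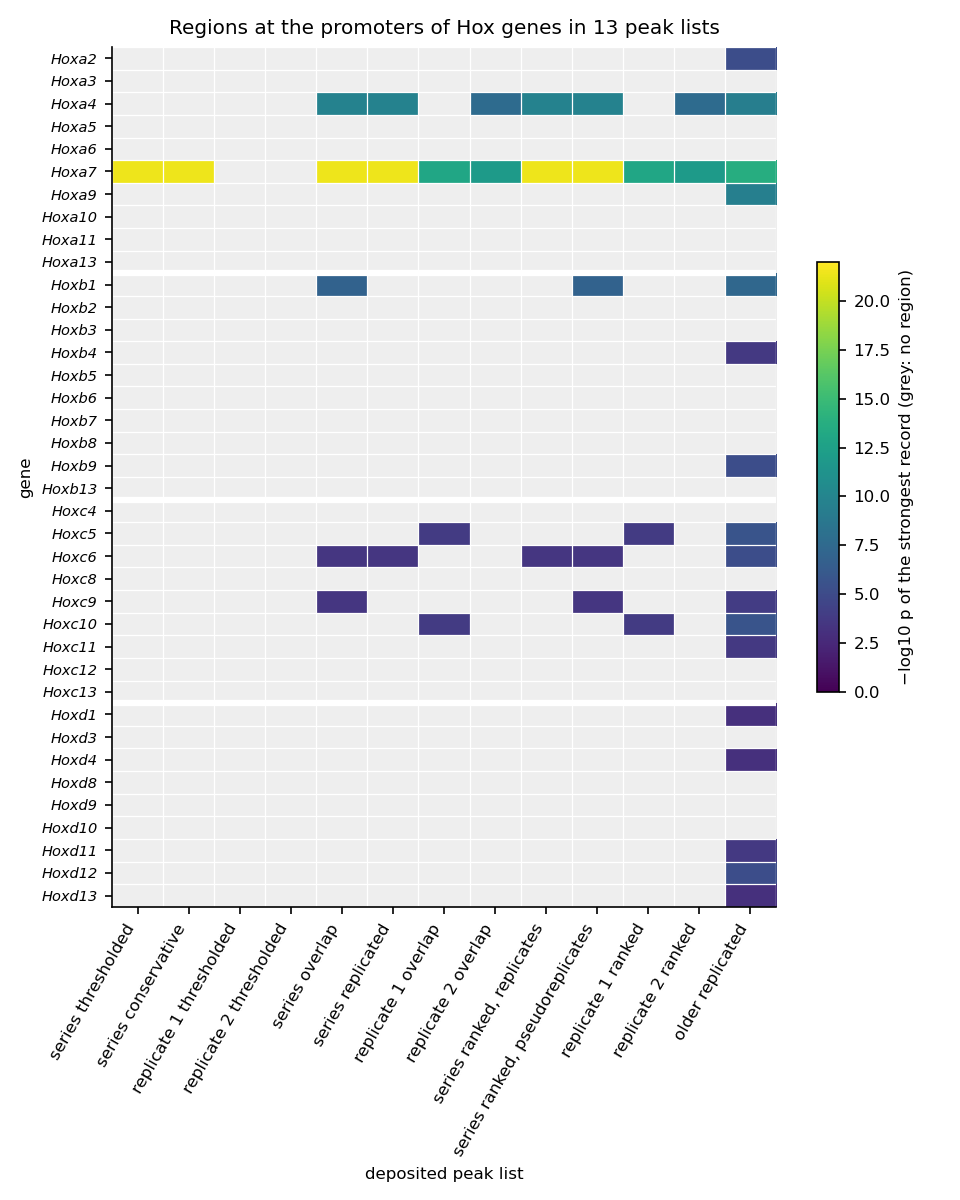
Strongest −log10 p of a promoter region (colour) for the Hox genes shown (vertical axis) in each of the 13 deposited peak lists (horizontal axis), with grey where there was no region. Hoxa7 is filled in 11 lists, the thresholded replicate columns are empty, and the Hoxd rows are filled only in the older list.

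Hoxa4, an anterior gene of the a cluster, was the next strongest. Its region, chr6:52191836-52192220, had its summit 198 bp upstream of the start, a fold of 4.28 and a −log10 p of 9.79 in the series. Replicate 2 had a record there with a fold of 4.58 and a −log10 p of 7.68, and replicate 1 had none in its overlap list. In the series the IDR of the Hoxa4 region was 0.348 between true replicates and 0.344 between pseudoreplicates. The Hoxc region kept in the main list had a similar fold of 4.82. Its −log10 p was higher, at 12.1, and its IDR between pseudoreplicates was far lower, at 0.0440. The region at Hoxb1, the gene of the anterior end of the b cluster, had a fold of 3.53 and a −log10 p of 6.93 and was in neither replicate's overlap list. The regions at Hoxc9, with its summit 210 bp downstream of a start, and Hoxc6, 611 bp upstream, each had a fold of 2.50 and a −log10 p of 3.50.

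A further region of the b cluster lay at the start of Hoxb3os, an RNA transcribed antisense to Hoxb3, at chr11:96354394-96354799. It had a fold of 3.57 and a −log10 p of 7.02 in the series, a fold of 3.00 in replicate 1 and 2.42 in replicate 2. It was the only one of 52 non-Hox genes with a start inside the windows, among them 7 miRNA genes and 6 long intergenic RNAs, to have a promoter region in the overlap list, and in the main list 0 of the 52 had one. Of the 52, 48 were not protein-coding, and over all non-coding genes the share was 7.85% in the main list and 10.7% in the overlap list, and these counts say little about the clusters. In the older list 13 of the 48 had a promoter region, against 22.7% of all non-coding genes. A neighbouring region in an exon of Hoxb2, chr11:96352911-96353451, reached a fold of 2.68. Replicate 1's overlap list also had a record, with a fold of 3.00, shared by the promoters of Hoxc10 and Hoxc5, whose starts lie close together. The series overlap list and replicate 2's overlap list had none there, and the older list had records there with folds of 2.93 and 3.89.

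**Figure D2:**
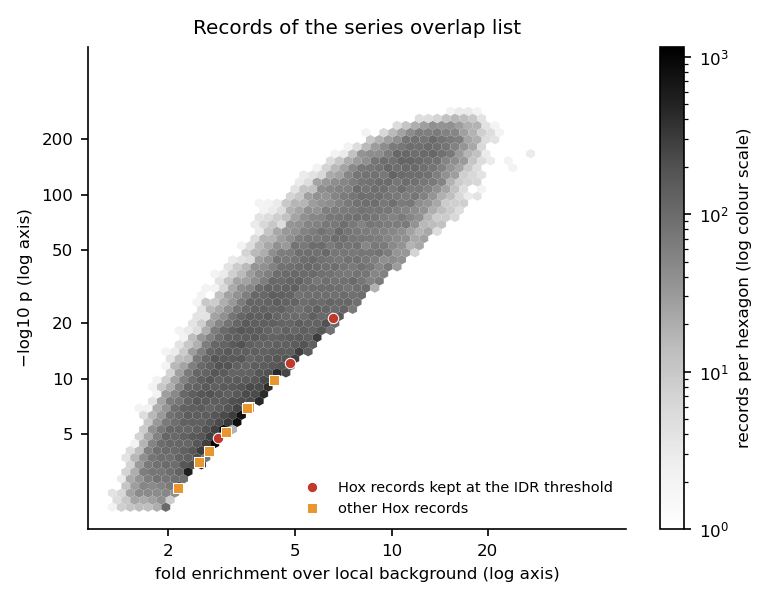
Fold enrichment (horizontal, log axis) against −log10 p (vertical, log axis) of every record of the series overlap list, as hexagons shaded by the number of records, with the 11 records in the Hox windows as points. The Hox records lie along the lower edge of the cloud, and the 3 that stayed in the thresholded list (red) include the strongest, at a fold of 6.57.

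The older list, which also had regions at most markers of other cell types, was much longer, with 251059 records in 190299 regions, and gave another picture. It held 67 regions in the windows, 11.7 per 100 kb against 6.98 over the genome. In it 17 of 39 Hox genes (43.6%) had a promoter region, against 68.8% of protein-coding genes. The counts were 4 of 11 Hoxa, 3 of 10 Hoxb, 5 of 9 Hoxc and 5 of 9 Hoxd genes. Its 79 records in the windows were weak for that list, with a median fold of 3.04 against 3.35 over all its records and a median −log10 p of 3.69 against 4.63. The highest were Hoxa7 with a fold of 6.50, Hoxa4 with 5.40 and Hoxa9 with 5.05. Hoxa9 is known for its role in early blood progenitors and in leukaemia, and its promoter had a region in this list alone. Hoxb4, known from work on blood stem cells, also had one in this list alone, with a fold of 3.04. The 17 records of the Hoxd window reached a fold of 3.71 at most, and no other list held a Hoxd record.

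Across all 13 lists 22 of 39 Hox genes had no promoter region. In the a cluster these included Hoxa3, Hoxa5, Hoxa6, Hoxa10, Hoxa11 and Hoxa13. In the b cluster they were Hoxb2, Hoxb3, Hoxb5, Hoxb6, Hoxb7, Hoxb8 and Hoxb13. In the c cluster they were Hoxc4, Hoxc8, Hoxc12 and Hoxc13, and in the d cluster Hoxd3, Hoxd8, Hoxd9 and Hoxd10. A further 10 genes had one in the older list alone. By position along the clusters, the main list had 0 of 12 genes of groups 1 to 4, 1 of 11 of groups 5 to 8 and 0 of 16 of groups 9 to 13. The overlap list had 2, 2 and 1, and the older list 6, 3 and 8. With so few genes in each, no order along the clusters can be read from these counts.

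The clusters lay within long stretches of DNA without a region of the main list, and most stretches between regions were shorter and held fewer coding genes. Measured from its nearest start, a Hox gene was a median of 63.2 kb from the nearest region, against 4.65 kb for all protein-coding genes. Beyond 10 kb lay 35 of 39 Hox genes (89.7%), against 45.8% of protein-coding genes. The median was 16.9 kb for Hoxa, 20.7 kb for Hoxc, 98.4 kb for Hoxd and 204 kb for Hoxb. All 10 Hoxb genes fell in a single stretch of 666 kb, chr11:96093723-96759979, with 3 other coding genes. Of the 24373 stretches between regions 3.46% were longer, and 0.418% held more coding genes with every start inside. These are shares of stretches, not of genes. All 9 Hoxd genes fell in a stretch of 246 kb, chr2:74579564-74825462, with 2 other coding genes, and this stretch had the same ends in the overlap list. The Hoxa7 region divided the a cluster into stretches of 208 kb and 417 kb, and the Hoxc region divided the c cluster into 245 kb and 178 kb. The median stretch was 14.7 kb.

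**Figure D3:**
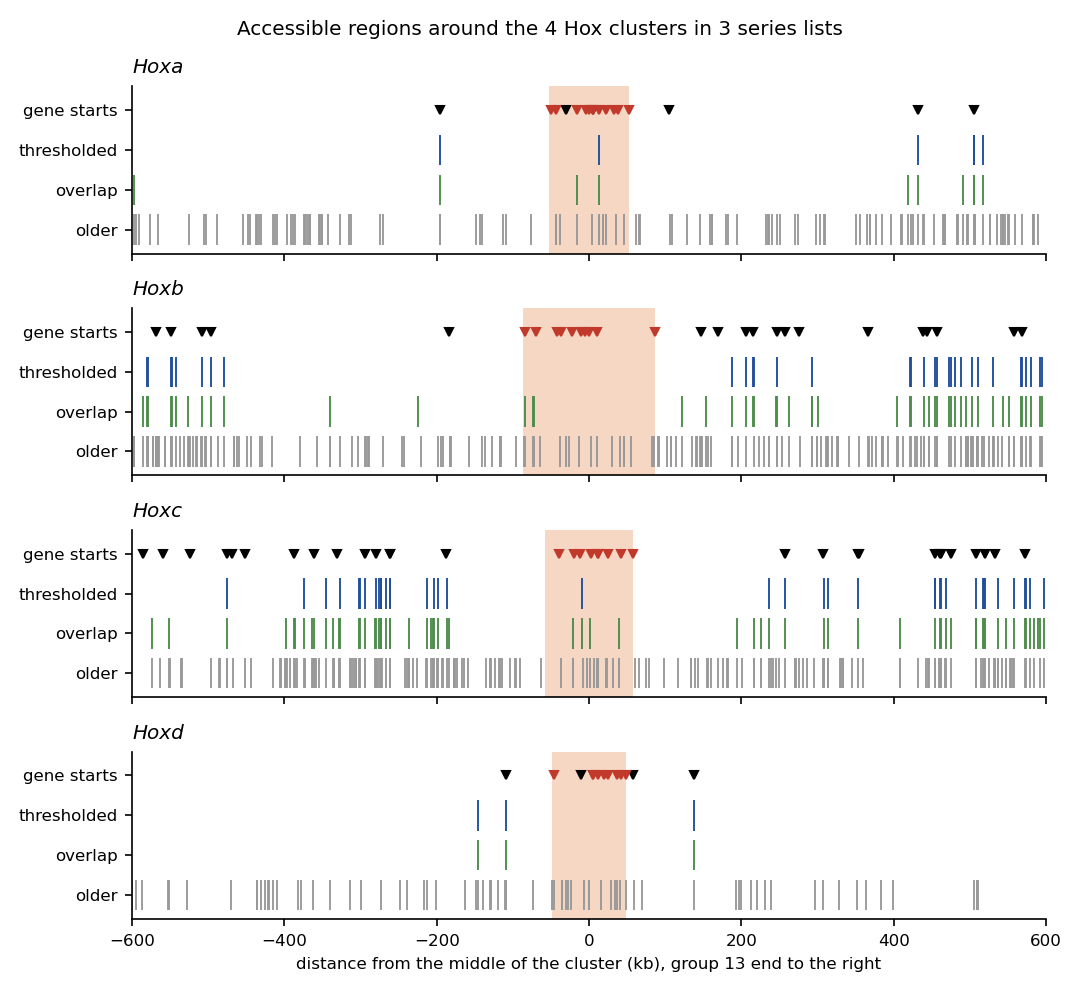
Regions of the main (blue), overlap (green) and older (grey) series lists, and starts of Hox (red) and other coding genes (black), against distance in kb from the middle of each cluster, with the Hox genes' extent shaded and the group 13 end to the right. Main-list regions resume outside the shading on both sides, densest around Hoxb and Hoxc, and the Hoxd shading is empty in the main and overlap lists.

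The DNA around the clusters differed between them. Within 500 kb on either side the main list held 3.40 regions per 100 kb around Hoxc, 3.20 around Hoxb, 0.5 around Hoxa and 0.300 around Hoxd. Hoxc and Hoxb were thus bordered by region-rich DNA and Hoxa and Hoxd by region-poor DNA, while Hoxa alone held a region at a Hox promoter. In the windows themselves the density was 0.798 at Hoxa and 0.737 at Hoxc, each from 1 region, and 0 at Hoxb and Hoxd. In the main list Hoxb and Hoxc were thus sparser than their flanks and Hoxa was not. The older list differed, with 9.58 regions per 100 kb in the Hoxa window against 10.7 in its flanks. There Hoxd had 13.7 against 5.60, while Hoxb (10.8 against 18.2) and Hoxc (13.3 against 18.5) were again sparser. The Hoxd window, empty in the main list, lay in DNA where that list had few regions on both sides.

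Most of the 40 flanking coding genes were accessible, and they lay up to 1171 kb from the clusters. The single nearest gene on each side divided. Skap2, Calcoco1, Smug1 and Mtx2 had a promoter region in the main list, and Evx1, Ttll6, Skap1 and Evx2 had none. Of the 5 nearest on each side of each cluster, 30 of 40 (75.0%) had an accessible promoter in the main list. All protein-coding genes gave 45.8% in that list. The count was 30 of 40 in replicate 1, against 43.5%, and 28 of 40 in replicate 2, against 42.6%. By cluster it was 10 of 10 around Hoxc, 8 of 10 around Hoxd and 6 of 10 around both Hoxa and Hoxb. Genes sharing a single region were each counted. These were Cbx3 with Hnrnpa2b1 beside Hoxa, and Cbx5 with Hnrnpa1 and Atf7 with Gm28047 beside Hoxc. The accessible flanking genes thus outnumber the regions behind them. The nearest gene to the group 13 end of the d cluster, Evx2, is itself a homeobox gene 8.75 kb away, and its promoter had no region. Evx1, its relative 52.6 kb beyond Hoxa13, had none either.

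Beyond the group 1 end of Hoxa, Skap2, an adaptor protein gene 143 kb away, had a promoter region with a fold of 16.3 in the series, 14.1 in replicate 1 and 15 in replicate 2. Snx10 had none, and Cbx3, which encodes a heterochromatin protein 1 family member, had a fold of 7.63. Beyond the group 13 end, Hibadh, a mitochondrial enzyme gene, had a fold of 13.6 and Tax1bp1, an autophagy receptor gene, 12.8. The Hoxa7 fold of 6.57 was below each of these.

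Around Hoxb, Ttll6, Calcoco2 and Skap1 lay inside the region-free stretch and had no promoter region. The next genes out were accessible. Atp5g1, a subunit of mitochondrial ATP synthase 119 kb beyond Hoxb13, had a fold of 11.5, 11 in replicate 1 and 11 in replicate 2. On the group 1 side Snx11, a sorting nexin gene 399 kb away, had a fold of 13.7, and Cbx1, another heterochromatin protein 1 gene, 12.8.

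Around Hoxc, Calcoco1, 199 kb beyond Hoxc13, had a fold of 16.3, Atp5g2 14.4 and the transcription factor gene Atf7 12.2. Beyond Hoxc4, Smug1, a DNA repair glycosylase gene 116 kb away, had the lowest fold of all the accessible flanking genes, 5.19, with 4.52 in replicate 1's thresholded list. Replicate 2's thresholded list lacked it, while its overlap list held it with a fold of 4.72 and a −log10 p of 10.5. Its −log10 p in the series was 21.4, as at Hoxa7. Cbx5 and Hnrnpa1 shared a region with a fold of 7.46.

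Around Hoxd, Lnpk, 88.9 kb beyond Hoxd13, had a fold of 12 and Atp5g3 13.2. Beyond Hoxd1, Mtx2, which encodes a mitochondrial outer membrane protein, lay 60.7 kb away with a fold of 12.1, 11.3 in replicate 1 and 10.6 in replicate 2. Hnrnpa3 had a fold of 10.8, and Nfe2l2, a regulator of the oxidative stress response, 7.60. The Hoxd window was therefore empty between accessible promoters of Lnpk and Mtx2, and these are the genes that end its stretch.

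The CpG content of Hox promoters was compared with that of other promoters, since CpG-rich promoters are usually open. The observed-to-expected CpG ratio of the Hox promoters had a median of 0.586 (0.265 to 0.909), against 0.377 for all protein-coding genes, and the cluster medians were 0.591 for Hoxa, 0.477 for Hoxb, 0.538 for Hoxc and 0.687 for Hoxd. No Hox gene fell in the lowest 3 deciles of this ratio. Among the 13990 other coding genes within the Hox range, 62.1% had an accessible promoter in the main list, against 2.56% of Hox genes. In the overlap list the shares were 69.0% and 12.8%, and in the older list 84.8% and 43.6%. Hoxd had the highest median ratio and no region in the main or overlap list. In the tenth decile, which held 7 Hox genes, 79.3% of all genes were accessible in the main list, and of those 7 (Hoxa4, Hoxa5, Hoxa11, Hoxa13, Hoxd8, Hoxd9 and Hoxd13) none was.

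**Figure D4:**
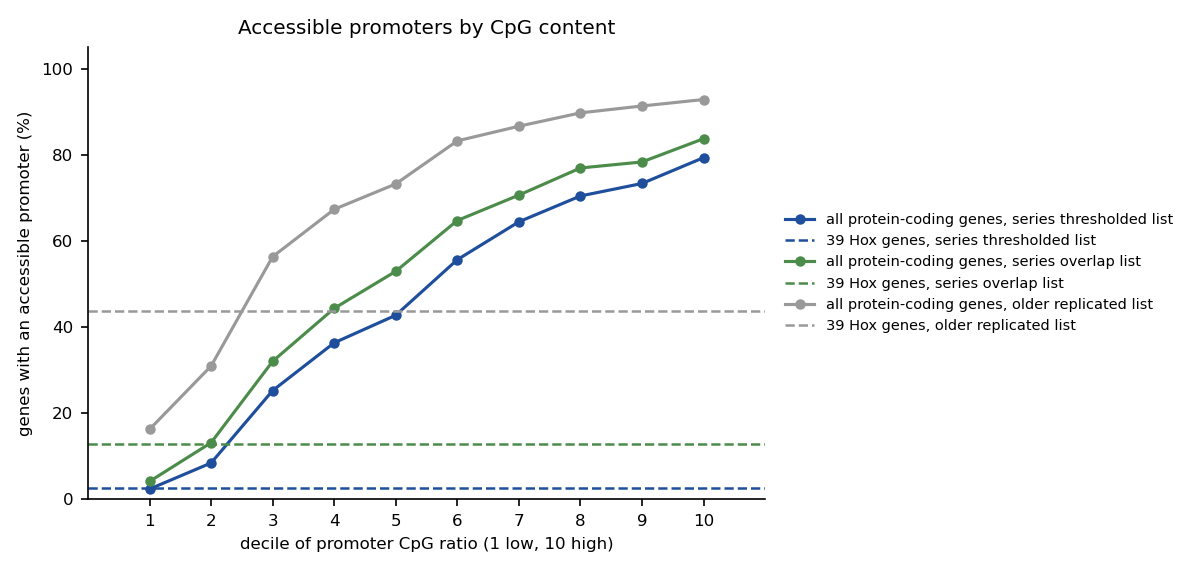
Percentage of all protein-coding genes with an accessible promoter (vertical) in each decile of the promoter CpG ratio (horizontal) for 3 series lists (points and lines), with the share of the 39 Hox genes in the same list as a dashed line of the same colour. In the main list all genes rise to 79.3% in the tenth decile, and the Hox line stays at 2.56%.

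Most genes of the Polycomb, trithorax and cohesin complexes had accessible promoters. Of 9 TALE cofactor genes, whose homeodomain proteins bind DNA with Hox proteins, 5 (55.6%) had an accessible promoter in the main list and in each replicate's thresholded list, near the 45.8%, 43.5% and 42.6% of all protein-coding genes in those lists, which the counts that follow are also to be read against. Among them were Pbx4 with a fold of 12.9 and Pknox1 with 10.5, and those without were Meis1, Meis2, Meis3 and Pknox2. All 11 genes of Polycomb repressive complex 2, which methylates histone H3 at lysine 27, were accessible in the series and both replicates, led by Rbbp7 with 16, Mtf2 with 15.9 and Ezh1 with 12.9. Of 16 genes of Polycomb repressive complex 1, which ubiquitinates histone H2A, 13 were accessible in the series, 11 in replicate 1 and 10 in replicate 2. The highest were Pcgf5 with 13, Rnf2 with 12.1 and Pcgf1 with 11.4, and Pcgf2 and Cbx2 were among those without one. Of 12 MLL and trithorax genes 11 were accessible, led by Rbbp5 with 12.4, Dpy30 with 12.1 and Ash2l with 12, and Kdm6b was not. All 8 CTCF and cohesin genes were accessible, led by Rad21 with 12.7, Wapl with 12.1 and Smc3 with 12.1. An accessible promoter says that the DNA was open, and the level of the protein was not measured.

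Few other homeobox genes were accessible by the main list. The 52 genes taken were developmental regulators that are not Hox genes. They include Evx1 and Evx2, also counted as flanking genes, and the start of Evx2 lies in the 10 kb margin of the Hoxd window. Of the 52, 1 (1.92%) had an accessible promoter in the main list, against 45.8% of all protein-coding genes. This was Six5, with a fold of 6.76 in the series, 6.16 in replicate 1 and 5.47 in replicate 2. In the overlap list 6 of 52 (11.5%) had one, against 12.8% of Hox genes and 52.1% of all protein-coding genes. In the older list 32 of 52 (61.5%) had one, against 43.6% of Hox genes. That count is near the 68.8% of all protein-coding genes in the older list. The difference between these genes and the Hox genes was not tested.

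**Figure D5:**
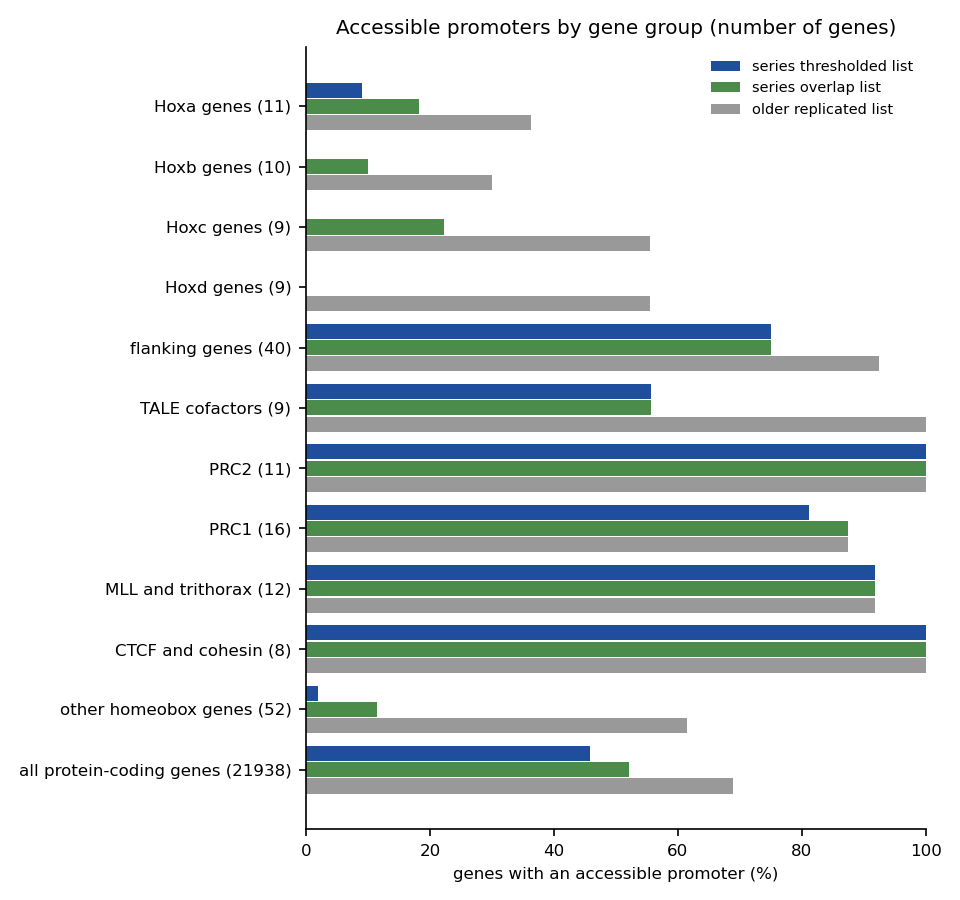
Percentage of genes with an accessible promoter (horizontal bars) in the main (blue), overlap (green) and older (grey) series lists for each Hox cluster, the 40 flanking genes, 6 gene lists and all protein-coding genes, with the number of genes in parentheses. In the main list the Hox clusters and other homeobox genes stand below the 45.8% of all genes, and the flanking genes and chromatin complexes above it.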

How the data were processed

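ATAC-seq peak lists of 1 group of 2 libraries were analysed. Peak calling was done by the authors, on mm10, for the single replicates and for the pool of both, per the labels. No source used here gives the aligner, the peak caller or the handling of Tn5 offsets. The authors deposited the fold of a record as a ratio over local background. The authors deposited p and q as −log10 values. In the thresholded lists the authors' deposited score encodes the IDR (lowest score 540). Scales differ between lists. Read depth is unknown from peak lists, so no interval is given. Signal tracks were not used.

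Overlapping or touching records were merged into regions, and a region took the values of its record of highest −log10 p. Starts came from GENCODE M21 and sequence from GRCm38.p6, with 1-based positions. CpG ratios and motif counts were computed with Python 3.11.15, numpy 2.4.6 and pandas 2.3.3. Merging, promoter assignment and motif search were checked on planted regions and sites, and all 200 of each were recovered. No test was made. Every Hox gene was accounted for. The nearest 3 flanking genes on each side, the 3 highest folds of each gene list and list members without a region (where 5 or fewer) were named. Sequence was shown for the strongest region of a cluster outside exons, and the short Hoxa7 stretch was added after its values were seen. Some genes that this rule covers are not reported here by name. The members and lists were chosen with earlier results of these data known. Alternatives covered other peak lists, single replicates, a 500 bp promoter window, summits, coding starts, gene bodies and fold.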

Additional observations from a re-analysis of the deposited data

How the results depend on the processing

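The count of 1 Hox gene became 5 in the overlap list of the series (Hoxa 2, Hoxb 1, Hoxc 2), 3 in the replicated list (Hoxa 2, Hoxc 1) and 17 in the older list (Hoxa 4, Hoxb 3, Hoxc 5, Hoxd 5). Regions numbered 2 in Hoxa, 3 in Hoxb and 4 in Hoxc in the overlap list, 2, 2 and 3 in the replicated list, and 12, 21, 18 and 16 in Hoxa, Hoxb, Hoxc and Hoxd in the older list. Regions outside promoters numbered 3, 3 and 35 in those lists. In the conservative list the Hoxc regions and the regions outside promoters were 0. Without replicate 1 or without replicate 2, the Hox genes, the Hoxa genes, the Hoxa regions, the Hoxc regions and the regions outside promoters ranged from 0 to 0. In the upper 50% of regions by fold the same 5 counts were 0, PRC1 genes fell to 6 and other homeobox genes to 0. Other homeobox genes numbered 6 in the overlap and replicated lists and 32 in the older list, where TALE cofactors numbered 9. All protein-coding genes gave 52.1%, 52.3% and 68.8% in the overlap, replicated and older lists. Without merging, Hoxa had 2 regions. Of 146 alternative values 97 stayed within 1.5 times the main count, among them all those for the 500 bp window, summits, coding starts and gene bodies. Alternatives for the gene lists were chosen after seeing the data. No paired analysis was possible because there is a single group. A site opened in few cells can miss every list, and the depth that would set this limit is unknown.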

Other observations

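The clusters arose by duplication of a longer stretch of chromosome, and members of the same gene families flank more than 1 of them. The genes were grouped by family after their values had been seen, and the grouping may lack relatives. It left out Creb5 (no main-list region) and Tax1bp1 (fold 12.8), both beside Hoxa. By this grouping 25 of the 40 flanking genes belonged to 10 such families. Of the 25, 19 had an accessible promoter in the main list. Over all 40 flanking genes it was 30 (75.0%), close to the share among family members. The CNC subfamily of basic leucine zipper genes had 1 member beside each of the 4 clusters, and each had an accessible promoter. Nfe2, the erythroid and megakaryocyte member beside Hoxc, had a fold of 7.80 (7.35 in replicate 1 and 7.35 in replicate 2). Nfe2l1 beside Hoxb had 10.6, Nfe2l2 beside Hoxd 7.60 and Nfe2l3 beside Hoxa 8.68. All 3 heterochromatin protein 1 genes (Cbx1, Cbx3 and Cbx5), all 3 genes of subunit c of ATP synthase (Atp5g1, Atp5g2 and Atp5g3) and all 3 hnRNP A genes were accessible too. Cbx3 and Cbx5 each shared their region with an hnRNP A gene, so those families are not separate observations there.

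Other families divided. Copz1, a coat protein gene beside Hoxc, had a fold of 14.3 and its relative Copz2 beside Hoxb had no region in the main list. Skap2 beside Hoxa had a fold of 16.3 and Skap1 beside Hoxb none, Calcoco1 beside Hoxc had 16.3 and Calcoco2 beside Hoxb none, and Snx11 beside Hoxb had 13.7 and Snx10 beside Hoxa none. Evx1 and Evx2, the homeobox genes nearest to the Hoxa and Hoxd clusters, both lacked one.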
